A study of Mus musculus with 4 samples.

Results

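Growth factors and the receptor tyrosine kinases that bind them were described here through 10 genes, 5 ligands (Pdgfa, Vegfa, Pgf, Hgf and Fgf2) and 5 receptors (Pdgfra, Pdgfrb, Met, Fgfr1 and Egfr). The rule names the genes and uses none of their values, although they were chosen with earlier results of these data known. The 48 RefSeq transcripts listed for them, of 75959 in the mRNA data, were summed per gene, which gave 10 of 21878 genes. Stranded libraries were made from total RNA of C3H10T1/2 cells after removal of ribosomal RNA, and the line is a mouse mesenchymal progenitor line derived from C3H embryos. There were 2 untreated samples (replicates 1 and 2) and 2 samples treated with 5-AZA (5-azacytidine, a cytidine analogue that lowers DNA methylation; replicates 101 and 102). The 5-AZA cells received 20 μmol/L for 72 hours and were then kept in fresh medium for another 21 days. The same culture protocol is written beside all 4 samples, and no culture time of its own is listed for the untreated cells, so time in culture and 5-AZA cannot be told apart. The comparison asked how the expression profile of the line differed after 5-AZA induction of muscle differentiation.

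Receptor tyrosine kinases span the cell membrane. Binding of a growth factor brings receptor chains together, the kinase domains phosphorylate each other, and the signal passes through adaptor proteins to the RAS, MAP kinase and PI3 kinase pathways. In mesenchymal cells, PDGF and FGF signalling is known for supporting proliferation and for restraining terminal differentiation. HGF and its receptor MET act on migrating muscle precursors and on satellite cells of muscle, VEGFA and PGF act mainly on endothelial cells, and EGFR answers to the ligands of the EGF family.

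Of the 10 genes, 5 rose after 5-AZA: the ligands Pgf, Hgf and Vegfa and the receptors Egfr and Met. None was called lower. Before adjustment limma's p was under 0.05 for 9 of the 10, all 9 higher. Over the 13199 genes tested, 3220 were higher and 1464 lower at that unadjusted p. A gene was called when limma's adjusted p was under 0.05 and the change was over 2-fold, on log2(FPKM + 0.1) values (FPKM: fragments scaled to transcript length and to the fragments sequenced). By that rule 13.1% of the 13199 genes tested were called higher and 1.32% lower, 1724 and 174 genes. These totals were 1041 and 886 after quantile normalisation. The median log2 fold change of the 10 genes was 0.89, beside 0.05 over all genes tested. Both 5-AZA samples lay above both untreated samples in 8 of the 10 genes and in 36.8% of all genes tested. Both lay below in 1 of the 10, Pdgfa, and in 25.4% of all genes tested. All 10 genes passed the limit of a mean of 0.1 FPKM, although Pgf was under 0.2 FPKM in both untreated samples. When either 5-AZA sample was left out, 1 of the 10 genes, Hgf, remained called. The study calls the samples of a group biological repeats, while the labels do not say whether they came from separate cultures, and the p-values measure the spread between these samples.

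**Figure D1:**
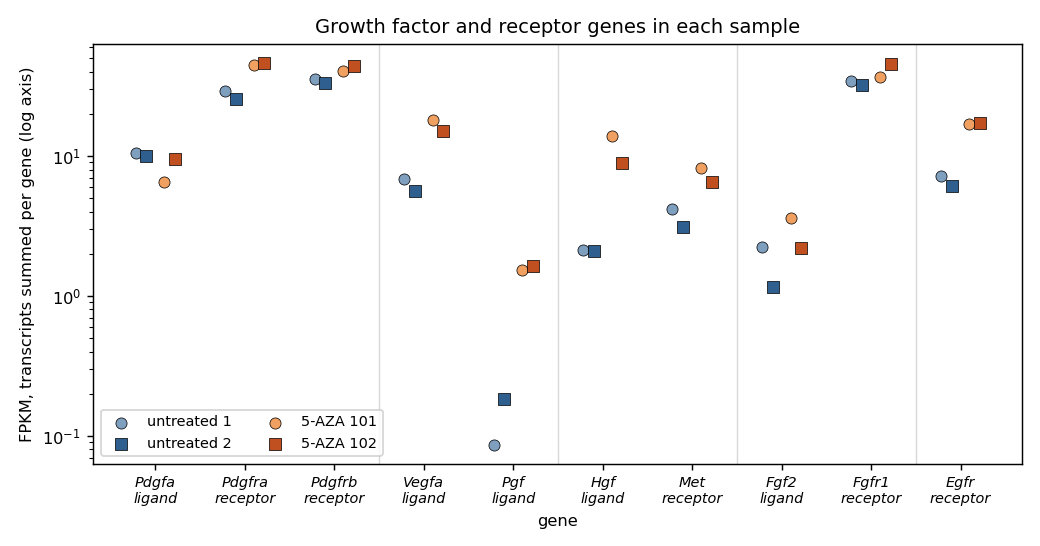
Summed FPKM (log axis) of the 10 genes in the 4 samples, blue for untreated and orange for 5-AZA, grouped by family with the role of each gene under its name. The 5-AZA samples of Pgf, Hgf, Vegfa, Egfr and Met sit clear above the untreated samples, those of Fgf2 overlap with them, and those of Pdgfa sit below.

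Markers of the cell types such cultures can hold were summed in each sample. Of the 9 skeletal myocyte markers, all 9 were called higher, and their summed level was 1.12 to 1.33 FPKM in untreated and 812 to 1236 FPKM in 5-AZA samples. Of the 8 adipocyte markers 7 were called higher, with sums of 34.7 to 49.7 and 1117 to 1538 FPKM. Among the 11 mesenchymal markers 10 were tested, and 1, Thy1, was called higher. The summed level of the mesenchymal markers was 8358 and 8379 FPKM in untreated and 4915 and 4738 FPKM in 5-AZA samples. Most of this sum was S100a4 and Vim, and the markers did not move together. Both 5-AZA samples lay above both untreated samples for 5 of the 10 tested and below for 4. Their median log2 fold change was 0.11. Ly6a, for example, was at 186 and 181 against 324 and 286 FPKM (log2 fold change 0.73, limma adjusted p = 9.12e-04). Vim, the intermediate filament of mesenchymal cells, was at 2268 and 2406 against 1178 and 1380 FPKM (log2 fold change -0.87, limma adjusted p = 0.00119), and S100a4, a calcium-binding protein of fibroblasts, at 5027 and 5002 against 2758 and 2355 FPKM (log2 fold change -0.98), both just under 2-fold. Of the 11 proliferation genes none was called by limma (0 higher and 3 lower at an unadjusted p under 0.05), with 8 of them below both untreated samples in both 5-AZA samples. The part of these cell types in the results on growth factors was not tested. In bulk RNA, more cells of a type and more RNA per cell cannot be told apart.

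The promoters of Hgf, Vegfa and Egfr are shown because these genes rose and because 5-AZA lowers DNA methylation, which in mammals lies mostly on the cytosine of the dinucleotide CG. Methylation itself was not measured. Each line gives the 250 bases before the first listed start of the gene, from RefSeq on GRCm38.p6, 5′ to 3′ on the strand of the gene, with every CG in capitals. The windows are chr5:16553245-16553494 (plus strand) for Hgf, chr17:46032378-46032627 (minus strand) for Vegfa and chr11:16751953-16752202 (plus strand) for Egfr. The first listed starts of Pgf and Met lie inside the span of the gene, and their windows are given by counts only.
Hgf: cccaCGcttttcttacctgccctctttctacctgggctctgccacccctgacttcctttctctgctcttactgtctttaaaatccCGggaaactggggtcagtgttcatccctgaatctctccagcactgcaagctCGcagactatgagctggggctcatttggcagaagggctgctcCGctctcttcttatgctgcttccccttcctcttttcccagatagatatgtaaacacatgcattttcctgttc
Vegfa: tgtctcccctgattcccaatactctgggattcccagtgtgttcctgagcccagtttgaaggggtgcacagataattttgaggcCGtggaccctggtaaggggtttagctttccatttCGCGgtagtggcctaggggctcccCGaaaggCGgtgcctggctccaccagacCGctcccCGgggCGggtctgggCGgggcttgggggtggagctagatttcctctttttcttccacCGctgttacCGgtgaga
Egfr: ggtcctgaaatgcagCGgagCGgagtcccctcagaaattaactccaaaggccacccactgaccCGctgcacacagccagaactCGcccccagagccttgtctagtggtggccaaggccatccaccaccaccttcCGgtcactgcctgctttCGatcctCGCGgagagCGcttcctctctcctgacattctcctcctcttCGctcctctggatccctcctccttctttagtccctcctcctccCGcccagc

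The windows of the 5 genes that rose differed widely in CG content. Met held 24 CG, Pgf 20, Vegfa and Egfr 11 each, and Hgf 4, beside a median of 6 (quartiles 2 and 16) over 32841 RefSeq promoter windows of the same length. Genes that were not called covered a like span, with 28 CG before the first start of Pdgfa, 20 before Fgf2 and 4 before Pdgfra. The sequence GGGCGG, known as the GC box and itself holding a CG, was found on either strand 3 times for Met, 2 times for Pgf and for Vegfa, once for Egfr and not for Hgf. It occurs in 32.7% of all windows. TATAAA was in none of the 12 windows listed for 8 of the 10 genes, and in 12.4% of all windows. Pdgfrb and Fgfr1 had no entry. These matches describe the letters only.

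Hgf (chr5:16553495-16619439, plus strand) encodes hepatocyte growth factor, a ligand secreted by mesenchymal cells. Its level was 2.14 and 2.11 FPKM in the untreated samples and 13.9 and 8.92 FPKM in the 5-AZA samples. Both 5-AZA samples were above the untreated pair, with replicate 101 the higher. The log2 fold change was 2.34 (SE 0.22, limma adjusted p = 8.79e-05), and Hgf was called in each of the 13 alternative settings.

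Met (chr6:17463349-17573980, plus strand), its receptor, was at 4.17 and 3.12 FPKM in untreated and 8.22 and 6.54 FPKM in 5-AZA samples. The groups did not overlap, and the log2 fold change of 1.00 (SE 0.20, limma adjusted p = 0.00591) lay just past the 2-fold limit. The call for Met was lost in 8 of 13 alternative settings, in each of which the 5-AZA samples stayed higher on average. Ligand and receptor changed places in level: Hgf stood at 0.513 and 0.674 times the FPKM of Met in the untreated samples, and at 1.70 and 1.36 times in the 5-AZA samples. FPKM is scaled to transcript length, so that such ratios compare levels between genes.

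Hgf has to be cleaved to become active, and the genes of its activation and inhibition were examined with its relative Mst1. Of 11 listed genes 5 were tested and 3 were called higher, with a median log2 fold change of 1.19. Plau, the urokinase that can cleave HGF, rose from 7.60 and 6.58 to 15.8 and 16.7 FPKM (log2 fold change 1.19, limma adjusted p = 2.44e-04). Mst1, the HGF-like ligand, was at 0.0182 and 0.104 FPKM in untreated and 0.540 and 0.339 FPKM in 5-AZA samples. Spint2, an inhibitor of the activating proteases, was listed at 0 in both untreated samples and at 0.197 and 0.234 FPKM after 5-AZA. Mst1 and Spint2, with untreated means under 0.1 FPKM, passed the limit for testing only through their 5-AZA values. The calls and the median of the list depend on this, and Plau was the only other gene called. Plat, the tissue plasminogen activator, overlapped between the groups.

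Vegfa (chr17:46016993-46032377, minus strand) encodes the main growth factor of blood vessels. It was at 6.89 and 5.63 FPKM in the untreated samples and 18.1 and 15.1 FPKM in the 5-AZA samples. The 5-AZA samples were far above the untreated pair, with a log2 fold change of 1.39 (SE 0.15, limma adjusted p = 2.5e-04). Of its 10 transcripts 7 carried values identical in all samples to those of another, in 3 sets. With each set counted once, Vegfa stood at 3.99 and 3.16 FPKM in untreated and 9.71 and 7.85 FPKM in 5-AZA samples and was still called higher, so its FPKM may be counted more than once while its direction was kept.

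Pgf (chr12:85166637-85177785, minus strand), placental growth factor, binds the VEGF receptor FLT1. Its level was 0.0867 and 0.183 FPKM in the untreated samples and 1.54 and 1.63 FPKM in the 5-AZA samples. Untreated cells held little of it, while the 5-AZA samples lay close together. The log2 fold change was 2.87 (SE 0.32, limma adjusted p = 2.67e-04), which the pseudocount of 0.1 FPKM understates, since the means differed 11.7-fold. Even so, Pgf stayed far below Vegfa, at 0.0126 and 0.0325 times its FPKM in untreated and 0.0851 and 0.108 times in 5-AZA samples. With the identical Vegfa transcripts counted once, these ratios were 0.0217 and 0.0578, and 0.158 and 0.207.

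The other ligands and the receptors of the PDGF and VEGF families moved in both directions. Of 7 listed ligands, 6 were in the data under their symbol (Figf is an older name of Vegfd) and 5 were tested, with 1 called higher and 2 lower. Pdgfd, a ligand of PDGFRB, rose from 3.05 and 3.17 to 6.58 and 6.96 FPKM (log2 fold change 1.10, limma adjusted p = 0.00108). Pdgfb, whose dimers bind both PDGF receptors, fell from 2.71 and 2.19 to 0.605 and 0.479 FPKM (log2 fold change -1.99, limma adjusted p = 5.69e-04). Vegfd, a ligand of lymphatic vessels, fell from 14.9 and 17.7 to 7.32 and 6.67 FPKM (log2 fold change -1.20, limma adjusted p = 3.14e-04). Vegfb was 8.12 and 8.60 against 7.13 and 7.91 FPKM and was not called.

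Of 6 receptors of the PDGF receptor class and the VEGF receptors, 1 passed the limit on low values. This was Flt1, the receptor for PGF and VEGFA, which rose from 0.488 and 0.424 to 1.65 and 2.71 FPKM (log2 fold change 2.00, limma adjusted p = 0.00135). Kit, Kdr and Flt4 were listed at 0 in all 4 samples. The co-receptor Nrp1 was at 19.0 and 15.7 FPKM in untreated and 36.8 and 31.5 FPKM in 5-AZA samples, which passed the adjusted p of limma (8.29e-04) but stayed under 2-fold at a log2 fold change of 0.98. Nrp2 went the other way, at 34.1 and 30.7 against 16.9 and 20.6 FPKM, with a log2 fold change of -0.79.

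Endothelial markers were examined beside these genes. Of 7 markers 5 were tested and 3 were called higher, with sums of 0.577 and 0.761 FPKM in untreated and 20.1 and 26.3 FPKM in 5-AZA samples. Both 5-AZA samples lay above both untreated samples for 4 of the 5 tested and below for 1. Most of the sum was Ramp2, a receptor subunit found beyond endothelium as well, at 16.9 and 24.1 FPKM after 5-AZA. Emcn, a sialomucin of endothelium, rose from 0.0953 and 0.0447 to 2.24 and 1.67 FPKM (limma adjusted p = 7.44e-05), and Cdh5, the cadherin of endothelial junctions, from 0 and 0.00622 to 0.484 and 0.211 FPKM. Emcn and Cdh5 passed the limit for testing only through their 5-AZA values. Pecam1 and Vwf were not called, at no more than 0.193 and 0.160 FPKM in any sample. The part of endothelial cells in the rise of Flt1, Pgf and Vegfa was not tested. Of 8 blood cell markers 3 were tested and 1, Cd68, was called higher, and of 7 epithelial markers 4 were tested and Epcam and Krt19 were called higher, each at no more than 0.301 FPKM.

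Pdgfra (chr5:75151322-75198206, plus strand), the receptor that marks mesenchymal progenitors, was at 28.9 and 25.5 FPKM in untreated and 44.7 and 46.1 FPKM in 5-AZA samples. The groups were well apart, and the log2 fold change of 0.74 (SE 0.11, limma adjusted p = 0.00112) passed the p-value but not the 2-fold limit, so that Pdgfra was not called. Pdgfrb, the related receptor on chromosome 18, was at 35.5 and 33.2 FPKM in untreated and 40.6 and 43.9 FPKM in 5-AZA samples, and its log2 fold change of 0.30 (SE 0.10, limma adjusted p = 0.0653) did not pass. Pdgfra thus stood at 0.815 and 0.770 times the FPKM of Pdgfrb in untreated cells and at 1.10 and 1.05 times after 5-AZA.

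Pdgfa (chr5:138976014-139000792, minus strand), the ligand of PDGFRA, was the 1 gene of the 10 with lower values after 5-AZA. It was at 10.5 and 10.03 FPKM in the untreated samples and at 6.46 and 9.57 FPKM in the 5-AZA samples. Replicate 101 was well below the rest, while replicate 102 was close to the untreated pair. The log2 fold change of -0.38 (SE 0.19, limma adjusted p = 0.187) did not pass. Receptor and ligand moved apart in level, with Pdgfra at 2.76 and 2.55 times the FPKM of Pdgfa in untreated and 6.92 and 4.82 times in 5-AZA samples.

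Fgfr1 (chr8:25518759-25575718, plus strand), the main FGF receptor of mesenchymal cells, was among the most abundant of the 10 genes in both groups. Its level was 34.2 and 32.2 FPKM in untreated and 36.6 and 45.5 FPKM in 5-AZA samples, with replicate 102 the highest. The log2 fold change was 0.30 (SE 0.12, limma adjusted p = 0.122). Fgf2 (chr3:37348477-37410106, plus strand), basic fibroblast growth factor, was at 2.22 and 1.16 FPKM in untreated and 3.61 and 2.196 FPKM in 5-AZA samples. Its groups overlapped, since untreated replicate 1 was as high as 5-AZA replicate 102, and the log2 fold change of 0.77 (SE 0.34, limma adjusted p = 0.140) did not pass. Without untreated replicate 1, Fgf2 was called higher (log2 fold change 1.22, limma adjusted p = 0.00614), so that 1 library decides this call.

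Among 21 other FGF ligands 7 were tested and 3 were called higher, none lower. These 3, Fgf21, Fgf11 and Fgf1, had untreated means under 0.1 FPKM. They passed the limit for testing only through their 5-AZA values, which left little room for a lower call. Fgf21, a hormone-like FGF of metabolism, was listed at 0 in both untreated samples and at 5.48 and 7.86 FPKM after 5-AZA (limma adjusted p = 2.55e-06). Its co-receptor Klb was likewise listed at 0 in the untreated samples and at 0.293 and 0.315 FPKM after 5-AZA. Klb too passed the limit for testing only through its 5-AZA values. Fgf11 rose from 0.0631 and 0.0308 to 0.644 and 0.700 FPKM, and Fgf1 was also called. Fgf7, the keratinocyte growth factor of stroma and the most abundant FGF ligand, overlapped between the groups at 46.4 and 41.3 against 45.2 and 39.3 FPKM. Klb was the 1 gene called of 4 tested among 6 other FGF receptors and co-receptors, and Fgfr2 was at 8.66 and 9.09 against 5.27 and 7.10 FPKM, not called. The adipocyte markers given above rose in the same samples as Fgf21 and Klb, and their part was not tested.

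Egfr (chr11:16752203-16913907, plus strand), the epidermal growth factor receptor, was at 7.18 and 6.06 FPKM in untreated and 16.8 and 17.1 FPKM in 5-AZA samples. The 5-AZA samples nearly coincided and lay above the untreated pair, with a log2 fold change of 1.35 (SE 0.13, limma adjusted p = 1.33e-04). Of 11 EGF family ligands 9 were tested and 3 were called higher and none lower. Their median log2 fold change was 0.84. Hbegf, a membrane-anchored ligand of EGFR, rose from 1.19 and 1.06 to 3.43 and 3.57 FPKM (log2 fold change 1.56, limma adjusted p = 6.66e-04). Epgn, another EGFR ligand, rose from 0.0525 and 0.0269 to 0.637 and 0.792 FPKM, and the neuregulin Nrg2 was called at no more than 0.214 FPKM. Epgn and Nrg2 had untreated means under 0.1 FPKM and passed the limit for testing only through their 5-AZA values. Tgfa was at 1.74 and 1.88 FPKM in untreated and 2.87 and 3.80 FPKM in 5-AZA samples and stayed under 2-fold.

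Of the 3 other ErbB receptors 2 were tested, and 1 was called lower and none higher. Erbb3, which has little kinase activity of its own and binds neuregulins, fell from 2.56 and 2.13 to 0.518 and 1.13 FPKM (log2 fold change -1.48, limma adjusted p = 0.0123). Erbb2, which binds no ligand itself, was at 7.90 and 7.53 FPKM in untreated and 4.56 and 5.62 FPKM in 5-AZA samples, with a log2 fold change of -0.60 that stayed under 2-fold. Erbb4 was at no more than 0.00543 FPKM in any sample and was not tested. The difference between Egfr and these receptors was not tested.

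**Figure D2:**
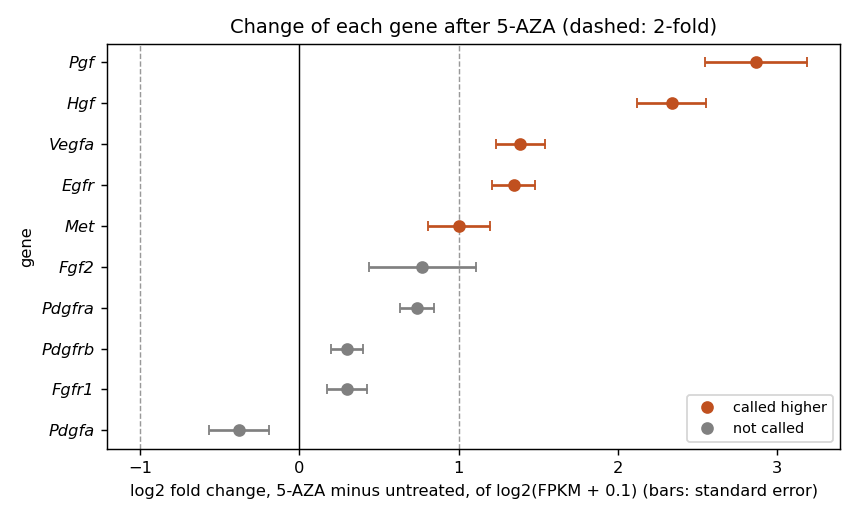
Log2 fold change (5-AZA minus untreated, on log2(FPKM + 0.1)) of each of the 10 genes with its standard error, from limma over 2 samples a group. The called genes, in orange, run from 1.00 for Met to 2.87 for Pgf, and Pdgfa alone lies below 0, at -0.38.

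The order of the 10 genes by level was similar in both groups at the top and the bottom and changed in between. In untreated cells Pdgfrb and Fgfr1 led, with ranges that overlapped, followed by Pdgfra, Pdgfa, Egfr and Vegfa, of which the last pair overlapped. Met, Hgf, Fgf2 and Pgf came last, and the ranges of Hgf and Fgf2 overlapped. After 5-AZA Pdgfra had the highest mean, and its range overlapped with that of Fgfr1 but not with that of Pdgfrb, while Pdgfrb and Fgfr1 overlapped. Egfr and Vegfa overlapped as the next pair, followed by Hgf, Pdgfa and Met, in which each neighbour overlapped with the next, and then by Fgf2 and Pgf. With its identical transcripts counted once, Vegfa would stand beside Met in untreated cells and among Hgf, Pdgfa and Met after 5-AZA, well below Egfr in both groups. The sum of the 10 genes was 131.8 and 119.2 FPKM in untreated and 190.6 and 196.5 FPKM in 5-AZA samples.

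The transcripts behind these sums were fitted in the same way. Of the 48 transcripts 44 were tested, and limma called 4 of them higher and none lower. Among the 4, NM_008827.3 of Pgf had an untreated mean of 0.0325 FPKM and passed the limit for testing only through its 5-AZA values. The same rule called 2.1% of the 35557 mRNA transcripts tested higher and 0.262% lower. With limma's p under 0.05 before adjustment, 16 of the 44 were higher and 1 was lower. For that unadjusted limit the share of all mRNA transcripts was not taken, so the 16 and 1 have no background beside them. Reads of exons that transcripts share have to be divided among them by estimation, so the level of a single transcript is less certain than the sum. Without either 5-AZA sample no transcript of any gene was called.

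In Pdgfra the change lay in NM_011058.2. It was at 12.9 and 12.7 FPKM in untreated and 31.6 and 35.8 FPKM in 5-AZA samples (log2 fold change 1.39, limma adjusted p = 0.00951). The other 4 Pdgfra transcripts together were at 16.1 and 12.9 FPKM in untreated and 13.1 and 10.3 FPKM in 5-AZA samples. NM_011058.2 thus made up 44.5% and 49.6% of the gene before and 70.6% and 77.6% after 5-AZA, so that a receptor gene that was not called as a whole held a called transcript.

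Pgf showed the largest shift in composition. NM_008827.3 was at 0.0237 and 0.0413 FPKM in untreated and 1.26 and 1.63 FPKM in 5-AZA samples (log2 fold change 3.53, limma adjusted p = 0.0485). Its share of the gene went from 27.4% and 22.6% to 81.8% and 100%, although the untreated shares rest on very low levels. NM_001271705.1, the major transcript in untreated cells at 0.0437 and 0.125 FPKM, was at no more than 3.45e-07 FPKM in the 5-AZA samples and under the limit for testing.

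In Hgf, NM_001289458.1 rose from 0.466 and 0.290 to 3.42 and 2.49 FPKM (log2 fold change 2.68, limma adjusted p = 0.0479). NM_001289461.1, which held the largest share of the gene after 5-AZA, was at 0.444 and 1.10 FPKM in untreated and 6.32 and 4.35 FPKM in 5-AZA samples, and narrowly missed the threshold (limma adjusted p = 0.0558). Of the 5 Hgf transcripts 3 had both 5-AZA samples above both untreated samples, and NM_010427.5 overlapped.

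In Egfr, NM_207655.2 rose from 5.12 and 4.91 to 11.6 and 11.9 FPKM (log2 fold change 1.21, limma adjusted p = 0.0270). NM_007912.4, the other listed transcript, was at 2.06 and 1.15 FPKM in untreated and 5.17 and 5.24 FPKM in 5-AZA samples (limma adjusted p = 0.0803). Both transcripts were higher in both 5-AZA samples, and the share of NM_207655.2 was 71.3% and 81.0% before and 69.2% and 69.4% after 5-AZA.

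No transcript of Met was called. NM_008591.2 was at 1.77 and 2.12 FPKM in untreated and 1.85 and 3.06 FPKM in 5-AZA samples, so that its groups overlapped. The 3 predicted transcripts together were at 2.40 and 1.003 FPKM in untreated and 6.36 and 3.48 FPKM in 5-AZA samples. The largest of these in 5-AZA samples, XM_011241043.2, was at 1.24 and 0.228 FPKM in untreated and 2.79 and 1.51 FPKM in 5-AZA samples. All 10 Vegfa transcripts had both 5-AZA samples above both untreated samples, and none was called. As 7 of them form 3 sets with identical values, these are not 10 separate measurements.

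In Pdgfa, NM_008808.3 was at 7.64 and 7.40 FPKM in untreated and 3.51 and 5.89 FPKM in 5-AZA samples, and XM_006504659.3 at 2.86 and 2.62 against 2.95 and 3.64 FPKM. The lower values of the gene after 5-AZA thus lay in the former, whose share was 72.8% and 73.8% before and 54.3% and 61.5% after 5-AZA, with neither transcript called. In Pdgfrb, the share of NM_008809.2 was 61.7% and 65.2% in untreated and 63.9% and 66.9% in 5-AZA samples. Of the 10 Fgfr1 transcripts 5 had both 5-AZA samples above the untreated pair, and the one closest to the threshold, XM_006509012.1, was at 5.16 and 6.25 against 9.86 and 10.6 FPKM (limma adjusted p = 0.1001). In Fgf2, NM_008006.2 was at 2.06 and 1.04 FPKM in untreated and 2.94 and 1.71 FPKM in 5-AZA samples.

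**Figure D3:**
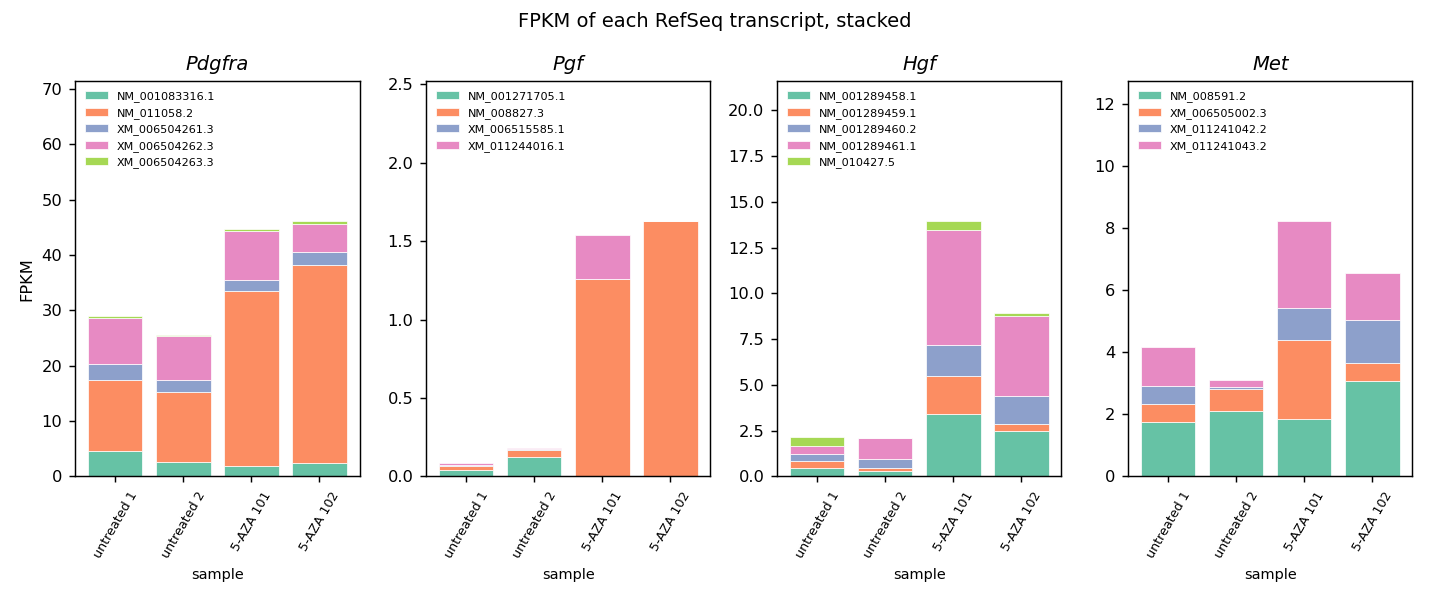
FPKM of each RefSeq transcript of Pdgfra, Pgf, Hgf and Met, stacked to the gene's sum, in the 4 samples. NM_011058.2 in Pdgfra and NM_008827.3 in Pgf account for most of the height added after 5-AZA, while the makeup of Met differs between replicates of a group.

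Long noncoding RNAs (lncRNAs) that overlap the 10 genes were examined in a fit added after their positions were seen. There were 34, with 14 on the strand of the gene and 20 on the other. None of the 14 tested was called by limma, beside 0.984% called higher and 0.154% lower of the 24075 lncRNAs tested. The unadjusted p was under 0.05 for 6 of the 14, each of them higher. The share of all lncRNAs at that unadjusted p was not taken. Of the 34, 11 were listed at 0 in all samples, 8 of them opposite to Fgfr1. Both 5-AZA samples were at 0.01 FPKM or more and above both untreated samples for 11 of the 34. The reverse held for 0 of them. The share of all lncRNAs that meet this rule was not taken, so these counts have no background beside them.

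The best measured pair lay within Fgf2. NONMMUT042657.2 (chr3:37405312-37410106), a single-exon RNA on the strand of Fgf2 that ends at the last base of the gene, was at 4.65 and 4.46 FPKM in untreated and 8.47 and 8.85 FPKM in 5-AZA samples (log2 fold change 0.91, SE 0.19, limma adjusted p = 0.198). Whether its reads and those of Fgf2 come from the same RNA was not tested. NONMMUT113127.1 (chr3:37392206-37395101), on the opposite strand, was at 1.17 and 2.04 FPKM in untreated and 6.39 and 5.74 FPKM in 5-AZA samples (log2 fold change 1.90, SE 0.33, limma adjusted p = 0.152). The groups of both lncRNAs stood apart where those of the Fgf2 mRNA overlapped.

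**Figure D4:**
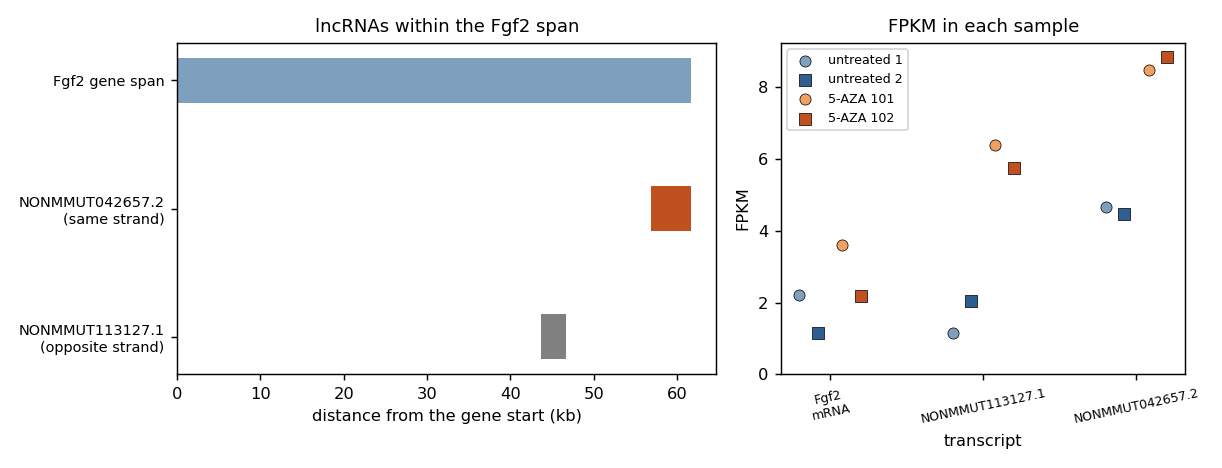
Left, the span of Fgf2 and of the 2 tested lncRNAs within it, in kilobases from the start of the gene (orange, same strand; grey, opposite strand). Right, FPKM of the Fgf2 mRNA and of both lncRNAs in each sample, in which the 5-AZA samples of the lncRNAs lie above the untreated samples and those of the mRNA overlap with them.

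Within Egfr, 4 lncRNAs on the strand of the gene were tested, and 3 of them had both 5-AZA samples above the untreated pair. NONMMUT008656.2, for example, was at 1.18 and 1.30 FPKM in untreated and 2.21 and 2.26 FPKM in 5-AZA samples (limma adjusted p = 0.309). On the strand of Hgf, 2 of the 3 tested lncRNAs had both 5-AZA samples at 0.01 FPKM or more and above the untreated pair. NONMMUT051316.2 was at 0.254 and 0.268 against 1.53 and 0.543 FPKM. NONMMUT117972.1 reached 0.01 FPKM in 5-AZA replicate 101 alone, at 1.93 FPKM. An lncRNA on the strand of its host gene can share reads with unspliced RNA of that gene, which was not tested.

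Circular RNAs, which form when a splice donor joins an upstream acceptor, were listed for 3 of the 10 genes. The deposited RPM values (junction reads scaled to the library) corresponded to whole reads, in libraries of 92903364 to 93920706 reads, and no circRNA had fewer than 2 reads where it was listed. circRNA_3742 of Fgfr1 had 0 and 2 reads in untreated and 3 and 6 reads in 5-AZA samples, and circRNA_3743, which shares its start, had 6 reads in 5-AZA replicate 102 and was listed at 0 in the rest. Over both Met circRNAs there were 2 and 0 reads in untreated and 3 and 0 reads in 5-AZA samples, and the 1 circRNA of Pdgfrb had 2 reads in untreated replicate 1. Summed over both Fgfr1 circRNAs there were 0 and 2 reads in untreated and 3 and 12 in 5-AZA samples. These few reads were not tested.

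Genes that act downstream of the receptors were examined in lists of relay genes, feedback inhibitors and response genes. All 27 signal relay genes, from the adaptor Grb2 to Akt1, were tested and none was called by limma (4 higher and 4 lower at an unadjusted p under 0.05), and their median log2 fold change was -0.04. Of these, 3 higher and 1 lower passed the adjusted p but stayed under 2-fold, among them Pik3r1, the regulatory subunit of PI3 kinase, at 21.0 and 19.5 FPKM in untreated and 35.2 and 40.9 FPKM in 5-AZA samples (log2 fold change 0.90, limma adjusted p = 5.63e-04). Akt1, the kinase downstream of PI3 kinase, was at 62.6 and 58.6 against 45.2 and 60.3 FPKM. Of 16 feedback inhibitors tested 6 were called higher and none lower (8 and 0 at an unadjusted p under 0.05), and their median log2 fold change was 0.57. Among all genes tested, 13.1% were called higher and 1.32% lower. A shift of 0.17 in the median of all genes under quantile normalisation is larger than the median of the relay genes.

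Among the feedback inhibitors, Spry1, a Sprouty protein that dampens RAS signalling, rose from 0.228 and 0.0703 to 3.48 and 3.50 FPKM (log2 fold change 3.92, limma adjusted p = 6.34e-05). Spry2, the most abundant of its family here, rose from 15.3 and 13.5 to 31.5 and 30.2 FPKM, and Spry4 from 0.301 and 0.0631 to 1.36 and 0.833 FPKM. Errfi1, which binds and inhibits the EGFR kinase, rose from 11.2 and 8.40 to 32.3 and 24.6 FPKM (log2 fold change 1.53, limma adjusted p = 3.23e-04). Dusp4, a MAP kinase phosphatase, and Lrig1, a membrane protein that lowers EGFR levels, were also called. Spred1 and Rasa1 overlapped between the groups. Of 17 growth factor response genes 1 was called, Fosl1, an AP-1 factor that rose from 1.70 and 1.04 to 4.24 and 3.62 FPKM. At an unadjusted limma p under 0.05, 5 of the 17 were higher and 1 lower. Phlda1, Etv1 and Etv5 were higher and passed the adjusted p but stayed under 2-fold (log2 fold changes 0.76, 0.90 and 0.52). The median log2 fold change of the 17 was 0.09. Ccnd1, cyclin D1, was at 60.5 and 55.7 against 55.2 and 54.2 FPKM.

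Of 40 other receptor tyrosine kinases 25 were tested, and 6 were called higher and none lower. Their median log2 fold change was 0.20. Musk, the kinase of the neuromuscular junction, rose from 0.144 and 0.155 to 4.77 and 7.11 FPKM (log2 fold change 4.57, limma adjusted p = 7.24e-06). Tek, the angiopoietin receptor, rose from 0.455 and 0.267 to 1.14 and 1.38 FPKM, and Epha1 was listed at 0 in the untreated samples and at 0.243 and 0.531 FPKM after 5-AZA. Ddr2 and Axl, the most abundant of the list, were at 121 to 140 and at 53.0 to 59.5 FPKM over the 4 samples and were not called. The myocyte markers given above rose in the same samples as Musk, and their part was not tested. Over all 12 lists of the pathway, 120 of 168 listed genes were tested, 25 were called higher and 3 lower, and the median log2 fold change was 0.14. By the same rule 13.1% of all genes tested were called higher and 1.32% lower. Several of the 25, among them Fgf21, Klb, Spint2 and Epha1, passed the limit for testing only through their 5-AZA values.

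**Figure D5:**
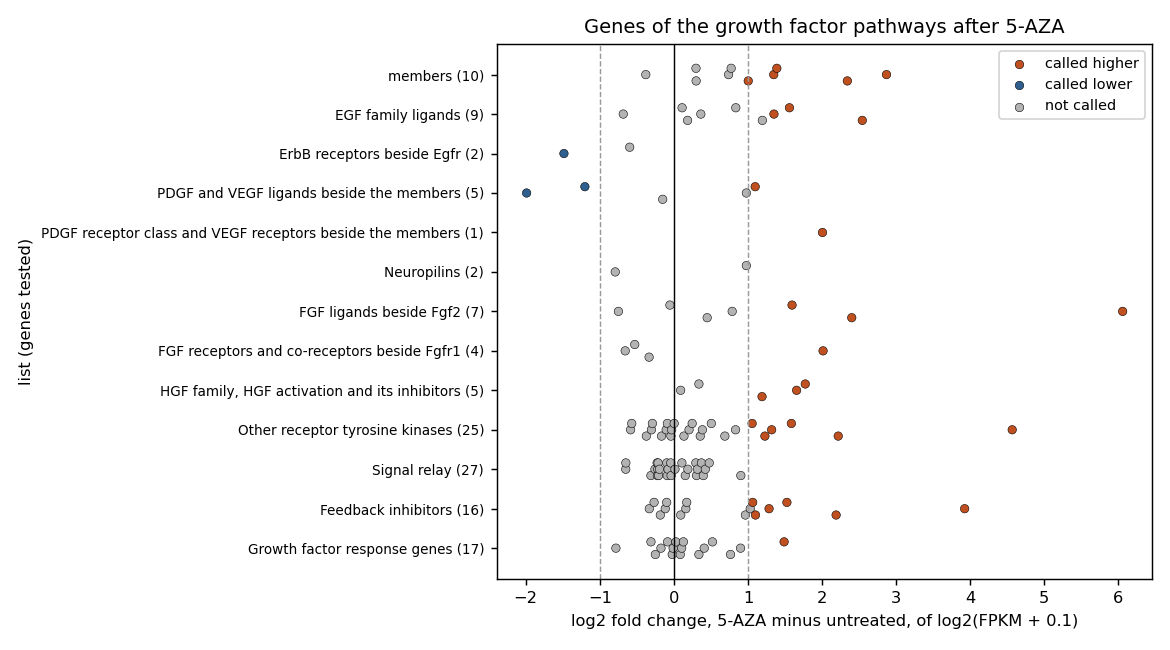
Log2 fold change (5-AZA minus untreated, on log2(FPKM + 0.1)) of each gene tested in the 10 genes and the 12 pathway lists, with the number tested in brackets, orange for called higher and blue for called lower. Feedback inhibitors hold 6 orange points of 16 and the 27 signal relay genes none, and the 3 blue points are Erbb3, Pdgfb and Vegfd. Among all genes tested, 13.1% were called higher and 1.32% lower.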

How the data were processed

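RNA of 2 untreated and 2 5-AZA samples was analysed. The authors trimmed reads with Trimmomatic and deposited FPKM values per transcript for mRNAs and lncRNAs, and RPM values for circRNAs. The submitters' processing notes also name HISAT2, Bowtie2 2.2.9, eXpress 1.5.1 and mm9, without their roles. Yet 88.4% of 2388 host transcripts of circRNAs lay within gene spans of GRCm38.p6 (tolerance of 2 bases), so coordinates are given on that build.

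Transcripts were summed per gene. Genes with a mean of at least 0.1 FPKM were fitted on log2(FPKM + 0.1) with limma 3.58.1 (lmFit, eBayes with trend) in R 4.3.3 with the data.table package (version 1.17.8), and Benjamini-Hochberg adjustment ran over all genes tested. Figures used matplotlib 3.10.9. The fit was tested on simulated data. With 2 samples against 2, the number of samples limits the precision.

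The 10 genes and all lists were chosen with earlier results of these data known. Named were, of each list, up to 3 genes called in each direction with the largest change and no overlap, up to 2 not called with the highest mean, and transcripts with at least 10% of their gene. Kit, Kdr, Flt4, Erbb4, Pik3r1, Lrig1, Dusp4, Spry2, Phlda1, Etv1, Etv5 and XM_006509012.1 fall outside this rule. So do single marker genes, the lncRNAs and the circRNAs, and all of these were chosen after their values were seen. Pseudocounts, filters, scalings, eBayes without trend, the top transcript alone and each sample left out were tried as alternatives. The values of 1 gene that this rule names are not reported here.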

Additional observations from a re-analysis of the deposited data

How the results depend on the processing

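Over the 10 genes, 112 of 129 values under alternative settings kept their direction and their side of the threshold, 15 lost and 2 gained a call, and none reversed. Hgf was called throughout (limma adjusted p at most 0.0404). The number of the 10 genes called higher was 1 to 6 when 1 sample was left out. Without 5-AZA replicate 101 or 102, limma's adjusted p rose to 0.0864 and 0.0720 for Vegfa, 0.0733 and 0.0768 for Pgf and 0.0690 and 0.0720 for Egfr, and the cause was not tested. The log2 fold changes of these genes then lay between 1.26 and 2.91. Over all its alternatives, limma's adjusted p went up to 0.135 for Vegfa, 0.0768 for Pgf and 0.0720 for Egfr. Pgf was under the limit of a mean of 1 FPKM and had no value there. Met lost its call with a pseudocount of 1 FPKM (log2 fold change 0.85), quantile normalisation (0.87), centring (0.90), no filter (limma adjusted p = 0.105), without untreated replicate 2 (0.80), without either 5-AZA replicate (0.84 and 1.17) and with its top transcript alone (0.29). Vegfa lost it with the top transcript alone (1.19), and Pdgfra gained one (1.39). Fgf2 gained one without untreated replicate 1 (1.22), and the cause of these changes was not tested.

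Over all genes, 1724 were called higher, which became 875 with a pseudocount of 1 FPKM, 845 with a mean of at least 1 FPKM, 1041 after quantile normalisation and 733 to 1617 when 1 sample was left out. The 174 called lower became 86 with a pseudocount of 1 FPKM, 83 with no filter, 886 after quantile normalisation and 52 to 184 when 1 sample was left out. The median log2 fold change of all genes was 0.05, and -0.12 after quantile normalisation. The 745 transcripts called higher became 0 to 175 and the 93 called lower 0 to 2 when 1 sample was left out, and centring gave 164 lower. No paired analysis was possible because the groups share no replicate numbers.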
